A study of Mus musculus with 6 samples.

Results

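The genes described here encode the transport machinery of the cilium: 31 genes of intraflagellar transport (IFT), of the BBSome and of the factors that load or assemble them. They were chosen by name, with earlier results of these data known, and make up 31 of the 48709 mouse genes counted. All 31 passed the filter on low counts, with 21 to 3923 reads per gene and library. RNA came from dissected neocortex of embryos at day E15.5. The Rest_het group held 3 mice labelled with the genotype Rest(+/deltaExon4), heterozygous for a Rest allele without exon 4. The WT group held 3 wild-type mice, and all were given as strain C57BL/6. Titles of the Rest_het samples say KO, and the genotype label was used here. REST is a DNA-binding protein that keeps neuronal genes silent outside neurons. No driver or cell type is named for the deletion. Separate mice are named, without litter or sex.

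A primary cilium is a single antenna of microtubules and membrane on the cell surface. In the developing cortex the apical progenitors extend it into the ventricle, and Hedgehog signals are processed there. Trains of IFT-B carry cargo to the tip with kinesin-2, and trains of IFT-A return with dynein-2 and admit membrane proteins with the adaptor TULP3. The BBSome, recruited by the GTPase ARL6 and assembled with the help of chaperonin-like BBS proteins, moves membrane proteins out of the cilium.

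The libraries held 17835117 to 18426652 gene reads in Rest_het and 19996943 to 20753653 in WT. Levels are given in CPM, the read count scaled by library size. Rest itself measured 16.7, 19.0 and 18.6 CPM in Rest_het libraries and 21.0, 19.7 and 21.1 CPM in WT libraries (edgeR adjusted p 0.49). All Rest_het values lay below all WT values, as for 8.94% of all genes tested. The Rest counts run over every exon of the gene, so they are no check of the deletion. Reads of the transgene Cre-ERT2 numbered 10, 16 and 17 in Rest_het libraries and 0 in each WT library, and reads of LacZ numbered 0 in each Rest_het library and 27, 51 and 43 in WT libraries. Transgene reads therefore split the groups exactly as the Rest genotype does, and effects of the one and the other cannot be told apart.

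RFX transcription factors are known to act on many ciliary genes through the X-box, a near-palindromic promoter motif. RefSeq promoter windows of GRCm38.p6 were found for 28 of the 31 genes, and Ift80, Ift81 and Ift122 had no entry. An X-box-like sequence, GTTNCC and then GGNAAC with NN between them, reads the same on both strands and occurred in the windows of 2 of the 28 genes (7.14%) and of 143 of 27025 genes of all kinds (0.529%). With up to 1 mismatch in the fixed letters it occurred in 6 of the 28 (21.4%) and in 2.89% of all. The shorter motif GTTGCC, which can lie within the X-box, occurred on either strand in 10 of the 28 (35.7%) and in 14.1% of all. A match of letters describes the window and does not show a bound site.

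The matches are shown because the members were not chosen by them, with up to 30 bases on either side where these lie outside the annotated gene. Matched letters are in capitals. Coordinates are those of the whole stretch printed. Exact matches lie in Bbs7 and Ttc26. The Bbs7 stretch is chr3:36613478-36613540 on the minus strand, and its match begins 121 bases upstream of the RefSeq start. For Ttc26 the match alone is printed, chr6:38381491-38381504 on the plus strand, which begins 33 bases upstream of the RefSeq start but lies inside the gene as GENCODE annotates it.
Bbs7: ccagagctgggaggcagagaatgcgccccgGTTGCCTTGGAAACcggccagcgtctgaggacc
Ttc26: GTTGCCGTGGAAAC
Matches with 1 mismatch lie upstream in Ift22 and Ift57, in the stretches chr5:136908087-136908149 and chr16:49699177-49699232, both on the plus strand. Ift22 held a second such match further upstream.
Ift22: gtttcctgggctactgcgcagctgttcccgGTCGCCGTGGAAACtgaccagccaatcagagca
Ift57: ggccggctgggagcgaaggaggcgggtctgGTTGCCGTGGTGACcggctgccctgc
In Bbs1, at chr19:4906613-4906626, and in Bbs4, at chr9:59353472-59353485, both on the minus strand, the match lies just downstream of the start.
Bbs1: GTTGCCAAGGCGAC
Bbs4: GTCGCCCGGGAAAC
The 6 genes with a match had log2 fold changes of Rest_het over WT from -0.38 for Ttc26 to 0.08 for Bbs1, none of them called. RNA of factors that read such motifs was present. Rfx3 measured 90.6, 103 and 84.1 CPM in Rest_het and 108, 104 and 101 CPM in WT libraries, and Rfx4 measured 28.6, 27.8 and 23.6 CPM in Rest_het and 19.3, 20.6 and 24.7 CPM in WT libraries. Of the 6 RFX genes listed, all tested, Rfx4 was higher at an unadjusted p under 0.05 and 0 were lower. Over all genes tested 6.98% were higher and 4.72% lower at that threshold. The groups overlapped for both factors, with edgeR adjusted p of 0.50 and 0.41.

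Levels were compared between genes as CPM per kilobase of merged exons, averaged over the 6 libraries. On that length Ift20, a small IFT-B subunit that also sits at the Golgi, was the highest at 32.8 ± 1.70 CPM per kb (SD, n = 6), above the next gene in every library. Ift46 and Ift74 of IFT-B followed with 25.9 ± 3.17 and 25.4 ± 0.971 CPM per kb (SD, n = 6), then Ift43 of IFT-A with 25.1 ± 1.92 and Bbip1, the smallest BBSome subunit, with 20.5 ± 1.32 CPM per kb (SD, n = 6). These neighbours overlapped between libraries. At the lower end stood Wdr19 of IFT-A with 0.841 ± 0.117, the chaperonin-like Bbs10 with 0.717 ± 0.243 and Bbs1 of the BBSome with 0.616 ± 0.0504 CPM per kb (SD, n = 6). Both ends of the order depend on the length used: per kilobase of the longest annotated transcript Ift43 came first with 49.4 CPM per kb, Ift20 second with 42.8 and Bbip1 next with 42.7, and Bbs10 was lowest with 0.717, below Bbs1 with 0.844. In the order of the 31 genes by merged exons, only 5 of the 30 steps between neighbours separated the libraries fully.

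The complexes overlapped widely in level and are given by their medians, with no test. The median of the 13 IFT-B genes was 9.22 CPM per kb, that of the 8 BBSome subunits 6.22 and that of the 6 IFT-A genes 2.003. Per kilobase of the longest annotated transcript, these medians were 11.5, 11.3 and 3.91, so IFT-A stayed lowest while IFT-B and the BBSome came close together. Within IFT-A, the 3 core genes Ift122, Ift140 and Wdr19 spanned 0.841 to 2.31 CPM per kb, below the peripheral Ift43 at 25.1. The other peripheral genes lay nearer the core genes, Wdr35 at 4.12 and Ttc21b, within their range, at 1.54 CPM per kb. Merged exons of the core genes measure 8333 to 11278 bases and those of Ift43 1651. The libraries were primed with oligo dT, and coverage along transcripts was not examined, so levels per kilobase of long and short genes compare only roughly. Ift74 and Ift81 encode partners of 1 dimer that binds tubulin, yet their levels per kilobase differed in each library: the ratio of Ift74 over Ift81 was 3.00, 3.52 and 3.73 in Rest_het and 3.05, 3.12 and 3.62 in WT libraries. Per kilobase of the longest transcript the ratio was 1.88 to 2.34. Ift74 was thus the higher in all 6 libraries, and the genotypes overlapped.

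**Figure D1:**
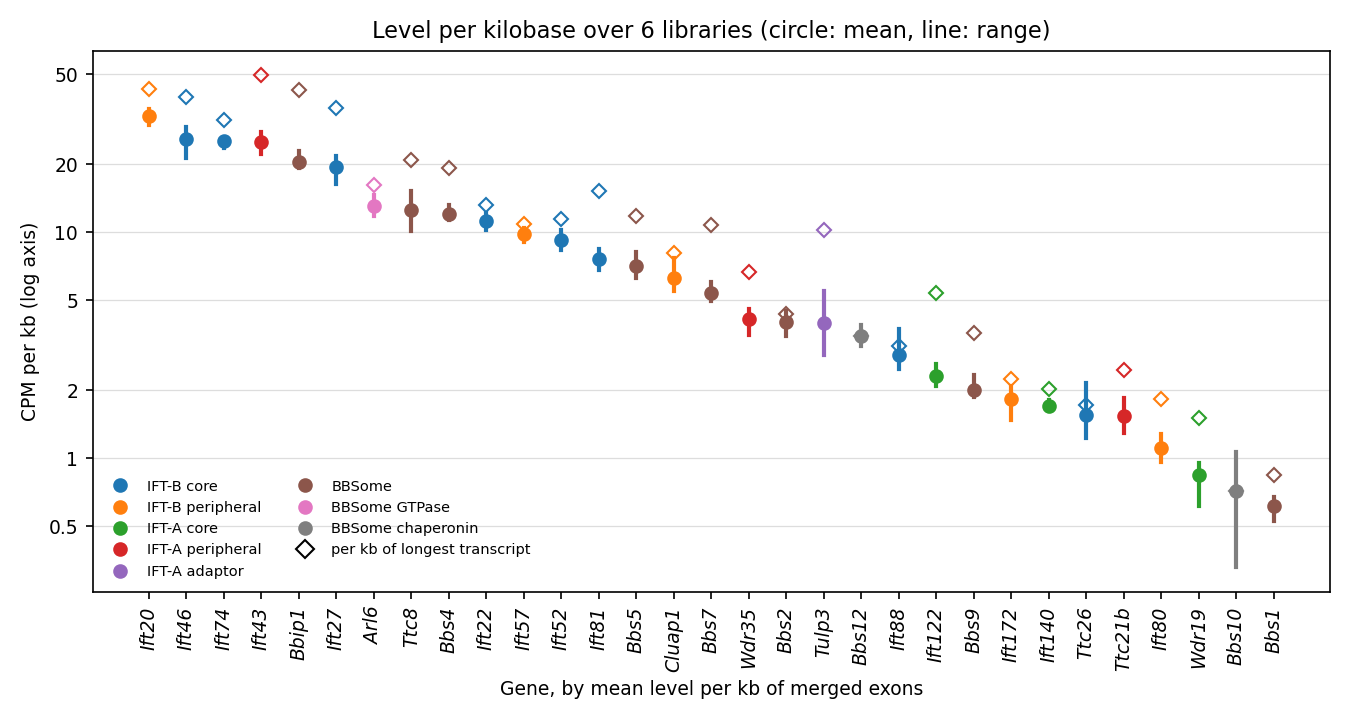
CPM per kilobase (log axis) of each of the 31 genes, in falling order, coloured by complex. Filled circles are means over 6 libraries on merged exon length, vertical lines the range over libraries, and open diamonds the mean per kilobase of the longest transcript. Ift20 stands at 32.8 and Bbs1 at 0.616.

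The comparison of the genotypes asked which of these genes differ in Rest_het neocortex. None of the 31 passed an adjusted p under 0.05 by edgeR's quasi-likelihood test, against 0.123% of all 15385 genes tested, and the smallest adjusted p was 0.36. The list leaves out Traf3ip1, an IFT-B gene that was called and is described below, so this result holds for the list as chosen. DESeq2 called 0 members too, against 126 of the 14184 genes to which it gave an adjusted p (0.888%). At an unadjusted p under 0.05 there was 1 member, Ift80, lower in Rest_het, and 0 were higher, while 4.72% of all genes were lower and 6.98% higher at that threshold. Of the members 12 had a log2 fold change above 0 and 19 below, the median being -0.03, beside 7832 above, 7553 below and a median of 0.01 over all genes tested. Fold changes were also small in size: the median absolute log2 fold change was 0.10 for the members and 0.17 for all genes tested. The members were the more abundant, with a median of 25.8 CPM against 12.0 CPM over all genes.

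The precision of the members was high enough to bound most differences. The 95% interval of the fold lay within 1.5-fold in either direction for 27 of 31 members, a property of 48.9% of all genes tested. The exceptions were Ttc26, Ift88, Tulp3 and Bbs10. Within 2-fold lay 30 of 31, all but Bbs10, compared with 74.8% of all genes. Summed over the 31 genes, the level was 998, 1040.2 and 1001 CPM in Rest_het libraries and 1073, 1059 and 1037 CPM in WT libraries, and the groups overlapped. The tissue was taken in bulk, so for any gene here the number of cells and the RNA per cell cannot be told apart.

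**Figure D2:**
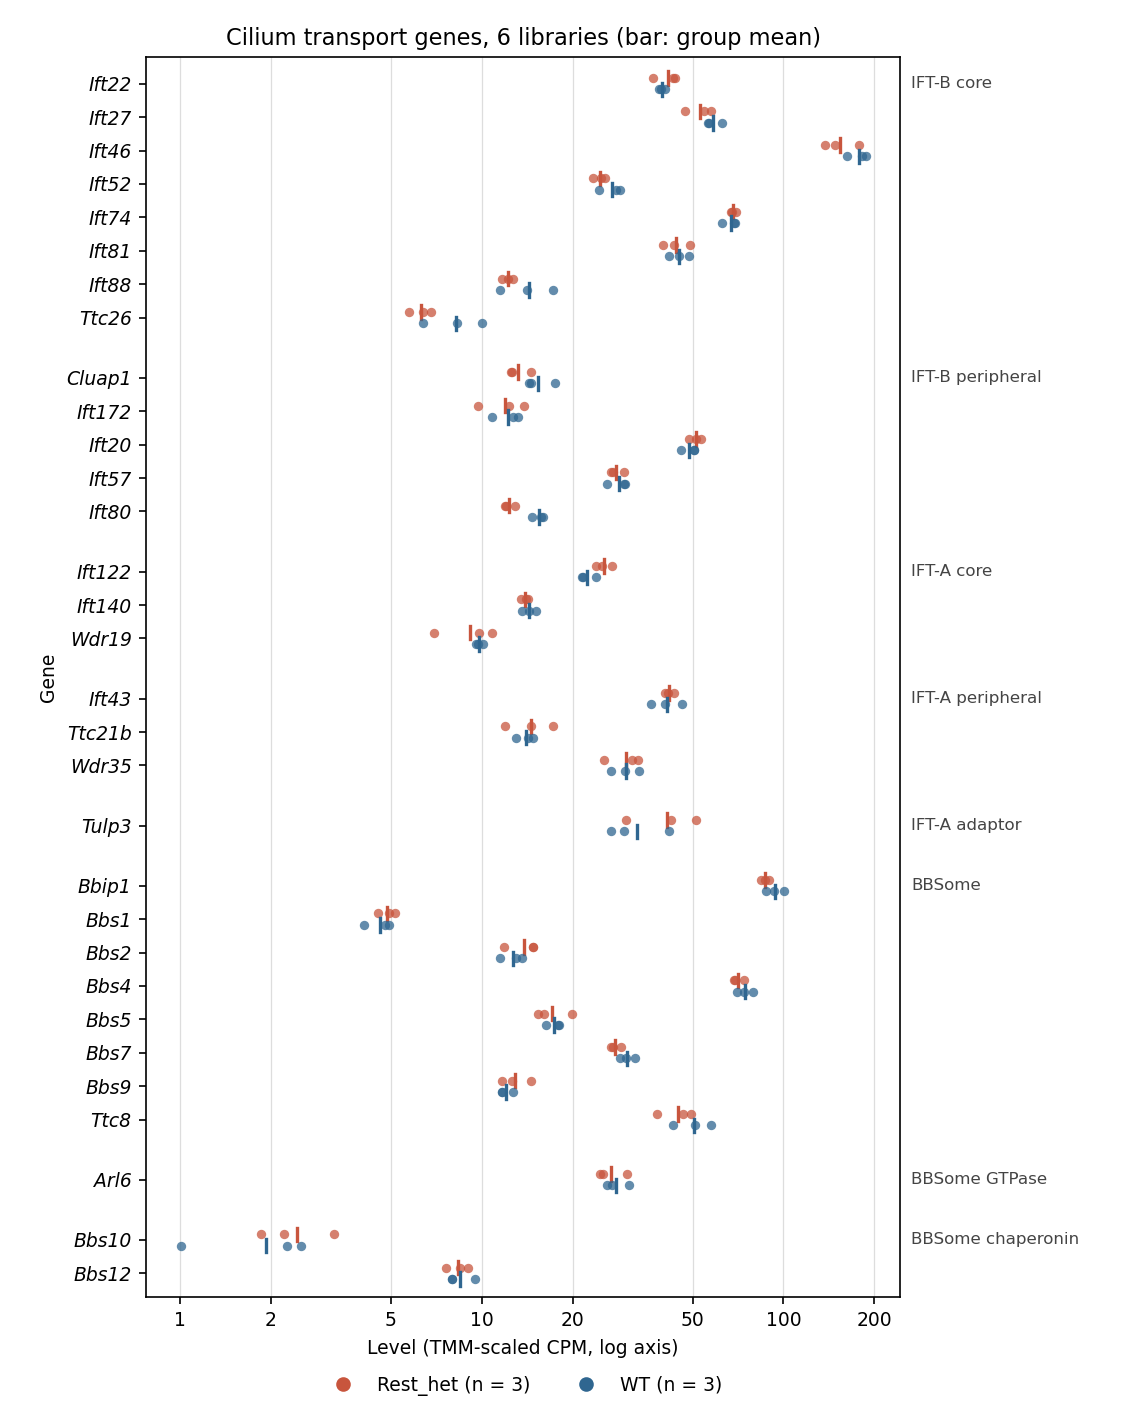
Level of each member in every library (TMM-scaled CPM, log axis), Rest_het above WT in each row, with short bars at the group means (n = 3 each). Ift80 is the member whose Rest_het values, 12.0 to 12.9 CPM, all lie below the WT values, 14.7 to 15.9 CPM, and Ift122 the one whose Rest_het values all lie above.

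Ift80, a peripheral IFT-B subunit whose mutation in humans causes skeletal ciliopathy, differed most by p. Its annotated gene spans chromosome 3, 68892499 to 69004570 (GRCm38). Ift80 measured 12.0, 12.0 and 12.9 CPM in Rest_het libraries and 14.7, 15.7 and 15.9 CPM in WT libraries. All Rest_het values lay below all WT values, which 8.94% of all genes tested showed. The log2 fold change was -0.33 with SE 0.11, the fold 0.795 with an interval from 0.669 to 0.943, and the edgeR adjusted p 0.36, so it was not called. Its unadjusted p stayed between 0.010 and 0.049 and its log2 fold change between -0.37 and -0.31 over all alternatives run.

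The other peripheral IFT-B members are subunits near the kinesin contact. Ift20 measured 48.7, 53.4 and 51.4 CPM in Rest_het and 45.7, 50.4 and 50.4 CPM in WT libraries. Ift57, whose protein pairs with CLUAP1 in the complex, measured 26.9, 27.3 and 29.5 CPM in Rest_het and 29.9, 29.5 and 26.0 CPM in WT libraries. Both overlapped between the groups, with log2 fold changes of 0.07 (SE 0.08) and -0.03 (SE 0.10). Cluap1, which encodes IFT38, measured 12.6, 14.5 and 12.5 CPM in Rest_het and 17.4, 14.3 and 14.5 CPM in WT libraries, a log2 fold change of -0.22 with SE 0.13. Of its merged exons 40.8% overlap other annotated genes, 1 of them on the same strand, so its counts are uncertain. Ift57, Ift88, Bbs4, Bbip1, Arl6 and Bbs12 overlap other genes over 1.45 to 7.86% of theirs. Reads shared with a gene on the opposite strand cannot be assigned without strand, and Bbs12 also overlaps a gene on its own strand. Ift172, the largest IFT-B subunit, had the log2 fold change -0.03 (SE 0.16), with 9.73, 12.4 and 13.8 CPM in Rest_het and 13.2, 12.7 and 10.8 CPM in WT libraries.

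Traf3ip1, which encodes IFT54, the direct partner of IFT20, is not among the 31 and was the pathway gene that passed. It measured 65.1, 74.8 and 65.4 CPM in Rest_het and 15.7, 19.4 and 20.9 CPM in WT libraries, 3.67-fold higher with an interval from 3.01 to 4.48 and an edgeR adjusted p of 0.001. The fold of Ift20 was 1.05, with an interval from 0.916 to 1.20. Traf3ip1 lies on chromosome 1, and all 19 genes called in this comparison, Traf3ip1 among them, lie on only 3 chromosomes.

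**Figure D3:**
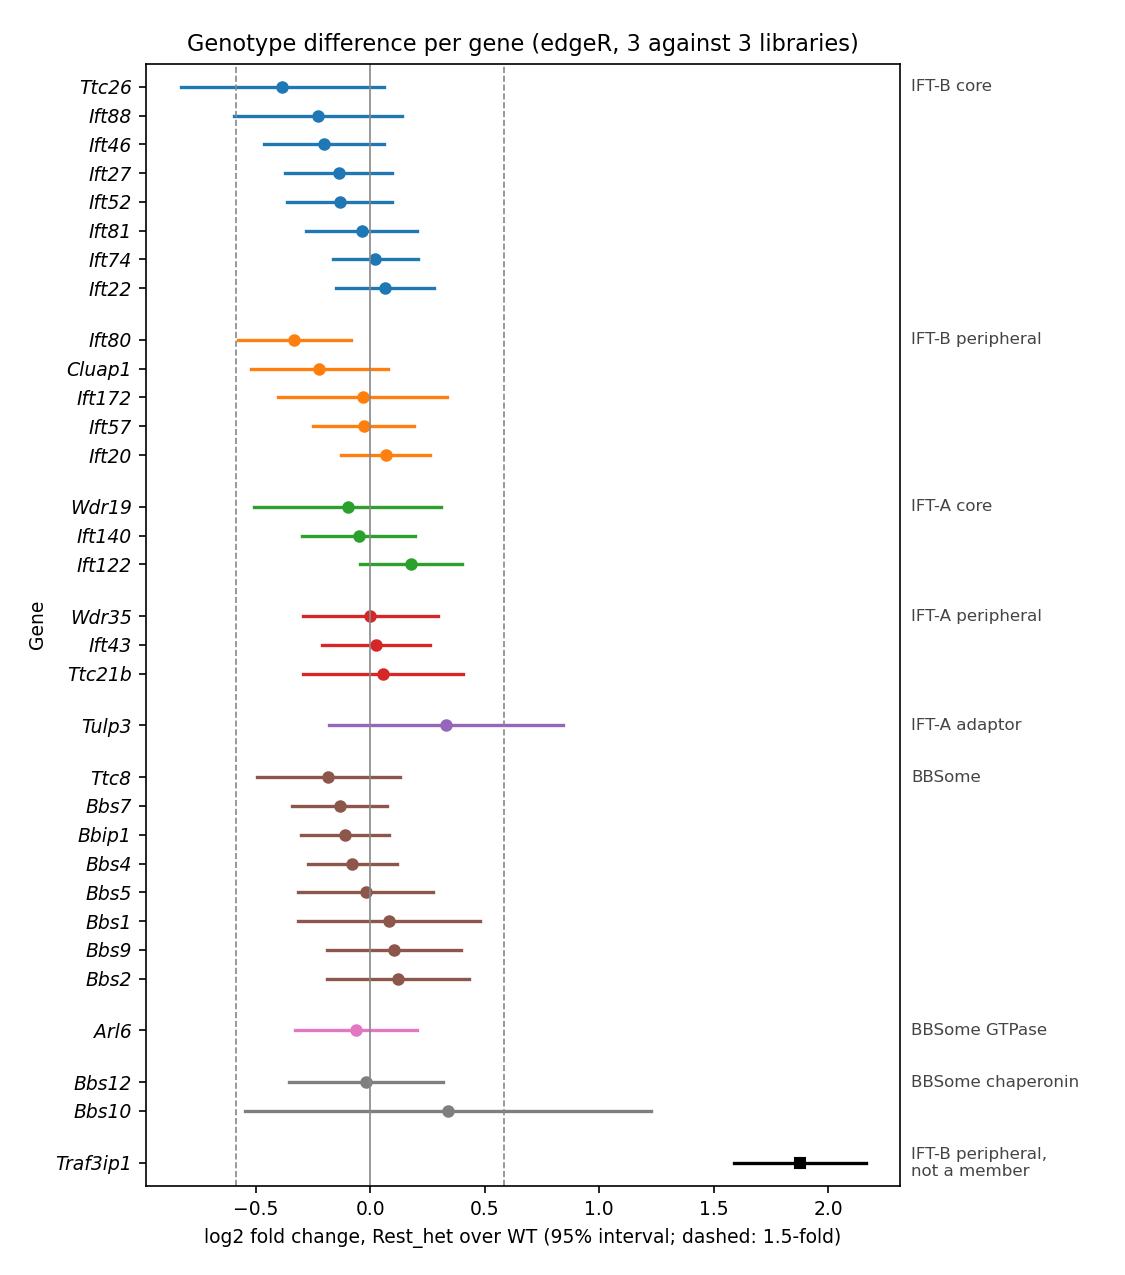
Log2 fold change of Rest_het over WT for each member with its 95% interval, by complex, and for Traf3ip1 (black square), which is not a member. Dashed lines mark 1.5-fold. The intervals of all members but Ift80 include 0, and Traf3ip1 stands at 1.88.

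In the IFT-B core, 6 of 8 genes had a log2 fold change below 0, the median was -0.14 and none was called. Ttc26, which encodes IFT56 and lies on chromosome 6 from 38381469 to 38427647, measured 6.38, 6.82 and 5.74 CPM in Rest_het and 6.40, 10.02 and 8.29 CPM in WT libraries. The groups met at WT replicate 1, and the log2 fold change was -0.38 with SE 0.19 (edgeR adjusted p 0.47). Ift88, the subunit disrupted in the Tg737 mouse model of polycystic kidney disease, measured 11.7, 12.7 and 12.2 CPM in Rest_het and 14.1, 17.2 and 11.5 CPM in WT libraries, so that the WT libraries alone spanned the Rest_het values.

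Ift46, the most abundant member by CPM, measured 137, 179 and 148 CPM in Rest_het and 187, 163 and 183 CPM in WT libraries. Rest_het replicate 2 lay among the WT values, and the log2 fold change was -0.20 with SE 0.11 (edgeR adjusted p 0.51). Ift27, a small GTPase that acts in BBSome exit, measured 54.6, 57.7 and 47.0 CPM in Rest_het and 56.7, 56.2 and 62.4 CPM in WT libraries, and Ift52, a scaffold of the core, measured 24.9, 23.3 and 25.7 CPM in Rest_het and 27.8, 28.7 and 24.5 CPM in WT libraries. Both groups overlapped, with log2 fold changes of -0.14 and -0.13. The tubulin-binding Ift74 had 66.8, 69.6 and 67.6 CPM in Rest_het and 62.7, 69.4 and 68.7 CPM in WT libraries, among the tightest intervals of the list (fold 0.894 to 1.16). Its partner Ift81 measured -0.04 (SE 0.11) and the GTPase Ift22 0.06 (SE 0.09) on the log2 fold scale.

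IFT-A genes had log2 fold changes close to 0, with 4 of 6 above 0, a median of 0.01 and none called. Ift122, a core subunit, measured 27.0, 24.0 and 25.1 CPM in Rest_het and 21.5, 21.7 and 23.9 CPM in WT libraries. All Rest_het values lay above all WT values, by a narrow margin, as for 10.4% of all genes tested. Its log2 fold change was 0.18 with SE 0.10 (edgeR adjusted p 0.49). Ift140 spanned 13.5 to 14.2 CPM in Rest_het and 13.6 to 15.1 CPM in WT libraries, and Wdr19, which encodes IFT144, 6.93 to 10.8 CPM in Rest_het and 9.60 to 10.1 CPM in WT libraries.

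Of the peripheral IFT-A genes, Ift43 measured 41.5, 43.3 and 40.6 CPM in Rest_het and 36.5, 46.0 and 40.6 CPM in WT libraries. Ttc21b, which encodes IFT139, measured 17.2, 14.5 and 12.0 CPM in Rest_het and 12.95, 14.2 and 14.8 CPM in WT libraries. Wdr35, which encodes IFT121, measured 31.4, 25.5 and 33.0 CPM in Rest_het and 29.9, 26.7 and 33.3 CPM in WT libraries. The 3 log2 fold changes were 0.03, 0.06 and 0.00, each smaller than its SE of 0.10 to 0.15.

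Tulp3, the tubby-like adaptor that brings membrane proteins to IFT-A, varied most between libraries after the scarce Bbs10. It measured 42.3, 30.03 and 51.2 CPM in Rest_het and 41.7, 26.7 and 29.6 CPM in WT libraries, a coefficient of variation of 25.8% in Rest_het and 24.3% in WT. The log2 fold change was 0.33 with SE 0.22 (edgeR adjusted p 0.56). The high libraries, Rest_het replicates 1 and 3 and WT replicate 1, were also those with the most reads of the 6 meningeal markers, which summed to 312, 165 and 464 CPM in Rest_het and 436, 161 and 235 CPM in WT libraries. Of these markers 0 of 6 were called. By their sum, though not each by itself, the 8 choroid plexus markers were highest in the same libraries. They summed to 215, 31.8 and 435 CPM in Rest_het and 112, 24.5 and 37.3 CPM in WT libraries. The microglia markers were also highest there by their sum, with 34.2, 30.1 and 38.5 CPM in Rest_het and 39.6, 31.8 and 33.9 CPM in WT libraries. The sums of the other marker lists were not highest in these libraries. The part of any set of markers in the Tulp3 values was not tested.

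Among the 8 BBSome subunits 5 had a log2 fold change below 0 and 3 above, the median was -0.05 and none was called. Bbs7 measured 26.9, 27.2 and 29.0 CPM in Rest_het and 32.3, 30.2 and 28.6 CPM in WT libraries, a log2 fold change of -0.13 with SE 0.09. Ttc8, which encodes BBS8, measured 38.2, 46.4 and 49.3 CPM in Rest_het and 57.7, 51.0 and 43.2 CPM in WT libraries. Bbip1 measured 86.6, 89.9 and 84.5 CPM in Rest_het and 100.5, 93.4 and 87.7 CPM in WT libraries. In each of these 3 genes the highest value was in WT replicate 1 and the groups overlapped.

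Bbs1, the subunit most often mutated in Bardet-Biedl syndrome and the contact of ARL6, was low in all libraries, with 4.92, 5.15 and 4.52 CPM in Rest_het and 4.92, 4.06 and 4.79 CPM in WT. Bbs2, Bbs4, Bbs5 and Bbs9 had log2 fold changes from -0.08 to 0.12, none larger than its SE. Arl6 measured 30.3, 24.7 and 25.2 CPM in Rest_het and 26.0, 30.7 and 27.0 CPM in WT libraries. Of the chaperonin-like genes, Bbs12 measured 7.62, 9.03 and 8.45 CPM in Rest_het and 7.98, 9.49 and 7.98 CPM in WT libraries. Bbs10 was the least abundant member, with 60, 40 and 35 reads in Rest_het and 21, 43 and 49 reads in WT libraries. Its fold of 1.27 had an interval from 0.684 to 2.34, which reaches past 2-fold.

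**Figure D4:**
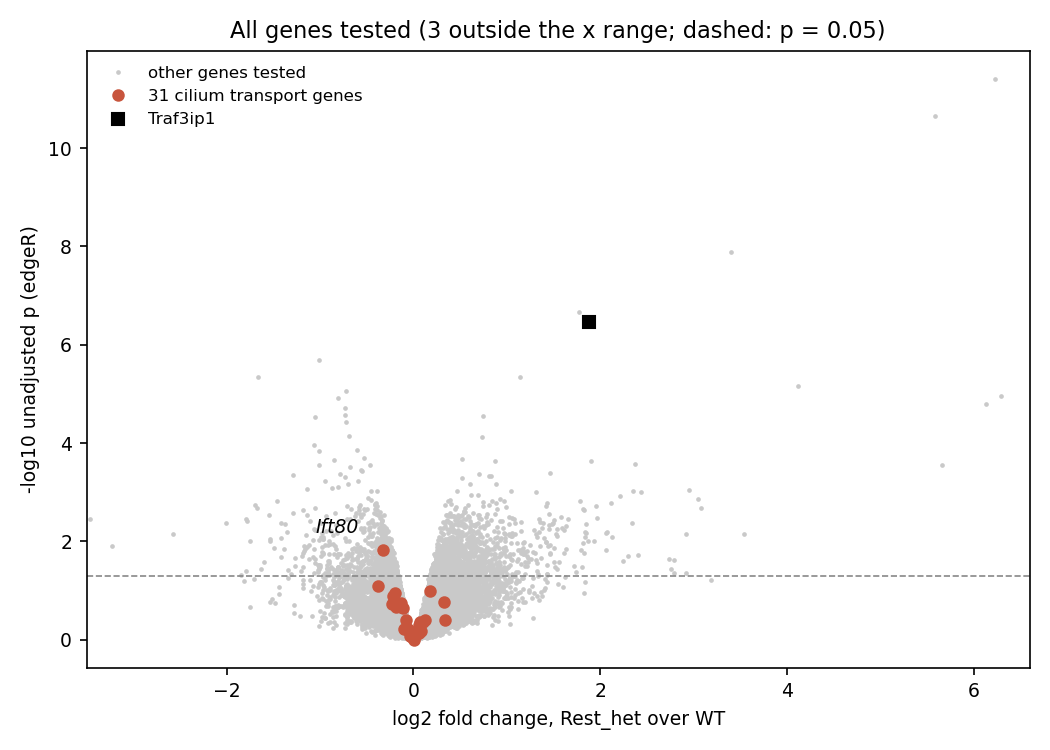
Log2 fold change of Rest_het over WT against -log10 of the unadjusted edgeR p for all genes tested (grey), the 31 members (red) and Traf3ip1 (black). The members sit near the origin, and Ift80 lies above the dashed line, which marks the unadjusted threshold of 0.05.

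The 19 genes called in this comparison lie on 3 chromosomes, and 5 members share a chromosome with them. Ift22 and Ift81 lie on chromosome 5 between the outermost called genes there, 107106570 and 138107822, and Bbs2 lies on chromosome 8 between 84856989 and 102865798. These 3 had log2 fold changes of 0.06, -0.04 and 0.12 with edgeR adjusted p of 0.81, 0.91 and 0.75. Ift172 and Wdr19 lie on chromosome 5 outside that span, at -0.03 and -0.10. No member lies on chromosome 1, where Traf3ip1 is.

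Around the members, 121 further genes of the ciliary pathway were listed, and 102 passed the filter. Traf3ip1 was the 1 called. At an unadjusted p under 0.05, 14 were higher (13.7%) and 6 lower (5.88%), beside 6.98% and 4.72% of all genes. The 14 include Rsph4a, Rsph1 and Foxj1, which passed the filter through the Rest_het libraries, where they are high. No reading is therefore made of the 13.7%. The same shares of all genes stand beside the counts per list below. In the list of other IFT-B and BBS genes, 7 tested, 1 was higher, Traf3ip1, and 1 lower, Lztfl1, a BBSome regulator, with 148, 158 and 149 CPM in Rest_het and 181, 181 and 176 CPM in WT libraries. Its groups did not overlap, with a log2 fold change of -0.24 and an edgeR adjusted p of 0.35. Mkks, the third chaperonin-like BBS gene, measured -0.13, and Hspb11, which encodes IFT25, 0.12 on the log2 fold scale.

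Of 14 motor genes, 3 were higher and 0 lower at an unadjusted p under 0.05. Dynll2, a dynein light chain shared with other motors, measured 36.4, 44.6 and 36.4 CPM in Rest_het and 22.7, 30.4 and 29.5 CPM in WT libraries. Wdr34, an intermediate chain of dynein-2, measured 22.8, 24.4 and 21.8 CPM in Rest_het and 18.0, 17.2 and 19.8 CPM in WT libraries. In both genes all Rest_het values lay above all WT values, as for 10.4% of all genes tested. The log2 fold changes were 0.51 and 0.33, with edgeR adjusted p of 0.33 and 0.36.

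Among 20 transition zone genes, which form the gate at the base of the cilium, 2 were higher and 1 lower at that threshold. Nphp4 measured 3.13, 3.27 and 2.39 CPM in Rest_het and 1.53, 2.004 and 1.85 CPM in WT libraries (edgeR adjusted p 0.36). Rpgrip1l measured 4.59, 4.93 and 4.94 CPM in Rest_het and 8.55, 7.49 and 5.20 CPM in WT libraries (edgeR adjusted p 0.40). All Rest_het values lay above all WT values for Nphp4 and below them for Rpgrip1l, and neither was called. Of all genes tested 10.4% lay above and 8.94% below in this way. Of 20 basal body and assembly genes 0 were higher and 2 lower, namely Cep97 and Ccp110, which cap the centriole and hold back cilium growth. Ccp110 measured 307, 292 and 362 CPM in Rest_het and 436, 358 and 374 CPM in WT libraries, and the log2 fold changes were -0.29 for Cep97 and -0.28 for Ccp110, with edgeR adjusted p of 0.40 each.

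Hedgehog genes were read because the pathway runs through the cilium. Of 13 tested, 2 were higher and 0 lower at an unadjusted p under 0.05, and the median was 0.30 on the log2 fold scale. Sufu, a negative regulator that binds GLI proteins, measured 14.2, 12.4 and 11.1 CPM in Rest_het and 8.22, 9.92 and 10.6 CPM in WT libraries (edgeR adjusted p 0.40). Evc, a protein of the cilium base, measured 3.13, 2.77 and 3.45 CPM in Rest_het and 1.24, 2.27 and 2.06 CPM in WT libraries (edgeR adjusted p 0.39). In both, all Rest_het values lay above all WT values, as for 10.4% of all genes tested, and neither was called. The pathway targets Ptch1 and Gli1 measured 0.30 (SE 0.15) and 0.06 (SE 0.75) on the log2 fold scale. Of 9 tested tubby family and ciliary cargo genes, 0 were higher and 1 lower at that threshold. The lower was Gpr161, a receptor that TULP3 and IFT-A bring into the cilium, which measured 6.11, 4.93 and 7.76 CPM in Rest_het and 10.7, 9.92 and 8.14 CPM in WT libraries, with an edgeR adjusted p of 0.36. Adcy6, an adenylyl cyclase, overlapped between the groups, with an edgeR adjusted p of 0.60.

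Motile cilia, which beat and carry axonemal dyneins and radial spokes, belong to choroid plexus and ependyma rather than to cortical progenitors. Of 25 such genes 13 passed the filter and 0 were called, with 5 higher and 1 lower at an unadjusted p under 0.05. Rsph4a and Rsph1, radial spoke genes, passed the filter through the Rest_het libraries. Rsph4a measured 1.41, 0.610 and 0.850 CPM in Rest_het and 0.0956, 0.0527 and 0.206 CPM in WT libraries (edgeR adjusted p 0.25), and Rsph1 0.919, 0.665 and 1.54 CPM in Rest_het and 0.191, 0 and 0.154 CPM in WT libraries (edgeR adjusted p 0.32). Foxj1, the master transcription factor of motile cilia, measured 0.919, 1.16 and 1.27 CPM in Rest_het and 0.573, 0.369 and 0.412 CPM in WT libraries (edgeR adjusted p 0.33), and passed the filter through Rest_het as well. Admission by the group where they are high favours genes that differ in that direction, so the separation of these 3 genes is given as values only. All 3 are among the 5 counted as higher. With no filter on low counts Rsph4a and Rsph1 were called, among 107 genes in all.

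Markers of other cells were set beside these values. The 8 choroid plexus markers summed to 215, 31.8 and 435 CPM in Rest_het and 112, 24.5 and 37.3 CPM in WT libraries, with 0 of the 7 tested called. All 7 had a log2 fold change above 0, beside 7832 of all 15385 genes tested. Otx2 among them passed the filter through the Rest_het libraries, where it is high, and Enpp2 lay at 0.0005. No reading is therefore made of the 7. The 25 motile cilia genes summed to 50.3, 46.9 and 51.5 CPM in Rest_het and 43.1, 43.4 and 41.6 CPM in WT libraries. The 10 markers of apical progenitors summed to 1419, 1519 and 1430.5 CPM in Rest_het and 1443, 1679.96 and 1529 CPM in WT libraries, overlapping like the cilium transport genes. Fabp7 makes up most of these sums, with 842, 982 and 841 CPM in Rest_het and 877, 1107 and 985 CPM in WT libraries. Of the 10 markers 6 lay above 0 in log2 fold change and 4 below, with a median of 0.07 and 0 called. The 10 markers of cortical excitatory neurons summed to 3443, 3295 and 3319 CPM in Rest_het and 4205, 3934 and 3719.9 CPM in WT libraries, lower in every Rest_het library, with 0 of 10 called. The part of these cell types in the ciliary values was not tested.

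**Figure D5:**
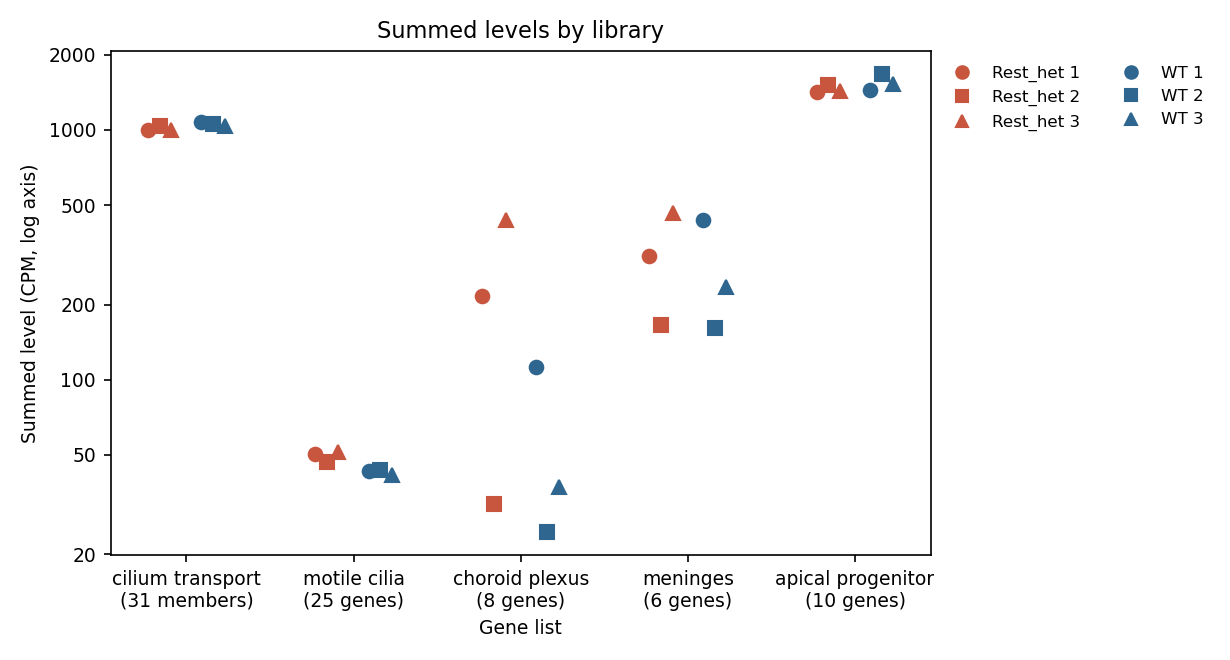
Summed level (CPM, log axis) of 5 gene lists in each library, Rest_het left of WT, with a marker shape per replicate. The 31 cilium transport genes sum to 998 to 1073 CPM in all 6 libraries, while the choroid plexus markers range from 24.5 to 435 CPM.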

How the data were processed

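Libraries were primed with oligo dT, amplified and tagmented, per the labels' protocols, so reads carry no strand and PCR copies are counted. The authors deposited read counts per gene from STAR 2.5.2a on GRCm38.p4 and normalized signal from DESeq2, both tools per the submitters' notes on processing. The annotation behind the counts is not given in the sources used here. Rows that name no gene were left out: unmapped read pairs were 1.21 to 1.45%, pairs with several matches 6.29 to 7.48%, pairs in no feature 21.4 to 26.9% and ambiguous pairs 2.54 to 2.85%. Symbols matched 48349 of 48709 gene IDs, and lengths and positions came from GENCODE M21.

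The main test was edgeR's quasi-likelihood F-test (edgeR 4.0.16 in R 4.3.3) with genotype as the single term, TMM scaling, filterByExpr (minimum 10 reads, 15 in total) and Benjamini-Hochberg adjustment over 15385 genes. An adjusted p under 0.05 made a call. SD is over libraries, SE is the log2 fold change over the root of F, and 95% intervals use the test's degrees of freedom. The labels name mice but no litters, so p-values measure the spread between these samples. The fit was checked on simulated counts.

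Alternatives were other scalings, DESeq2 1.42.0, limma 3.58.1 by voom and on log2 of the deposited signal plus 1, other filters, an adjusted p under 0.10, a replicate block and each library left out. Members, lists, alternatives and the naming rule were chosen with earlier results of these data known. By that rule values per library are given for called members, the 12 smallest p, groups that do not overlap, the extremes per kilobase and up to 2 genes per pathway list. Other genes were added after their values were seen.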

Additional observations from a re-analysis of the deposited data

Results flagged for a closer look

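Reads outside the gene counts separated the groups: the Rest_het libraries held 43 Cre-ERT2 reads in all and the WT libraries 0, while the Rest_het libraries held 0 LacZ reads and the WT libraries 121. PCR copies are among these reads, and their relation to the ciliary genes was not tested.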

How the results depend on the processing

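The count of members called was 0 under all 15 alternatives, with a smallest adjusted p of 0.31. The count of all genes called, 19, was 126 by DESeq2, 107 with no filter and 12 to 35 with a library left out (35 when WT replicate 2 was dropped, 32 when Rest_het replicate 3 was, 12 when WT replicate 1 was). Pathway genes called were 3 with no filter, with Rsph4a and Rsph1 joining Traf3ip1. With the replicate number as a block, 6 genes were called and 0 members. Same-numbered libraries correlated at 0.011, 0.037 and -0.144 in their deviations from the group means, and differently numbered ones at -0.175 to 0.17. With 3 libraries per group these values cannot show whether same-numbered libraries share a litter or batch.

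With a library left out, 0 to 1 members were higher and 1 to 2 lower at an unadjusted p under 0.05, Tulp3 joining without Rest_het replicate 2 or WT replicate 1, Ift46 without Rest_het replicate 2, Ttc26 without WT replicate 1 and Ift88 without WT replicate 3. The median log2 fold change of members ran from -0.078 (without WT replicate 3) to -0.0025. Members near 0 changed sign when libraries were left out, with log2 fold changes from -0.022 to 0.050 for Ift74, -0.12 to 0.037 for Ift81, -0.090 to 0.0075 for Ift57, -0.14 to 0.093 for Ift172, -0.23 to 0.071 for Wdr19, -0.052 to 0.12 for Ift43, -0.076 to 0.11 for Wdr35, -0.083 to 0.18 for Ttc21b, -0.14 to 0.057 for Bbs5, -0.16 to 0.010 for Arl6 and -0.075 to 0.067 for Bbs12. Wdr35, at 0.00025, also turned to -0.0065 with DESeq2 size factors and by DESeq2, -0.017 with upper-quartile scaling, -0.0022 by voom, -0.0085 on the deposited signal, -0.00094 with no filter and -0.0027 with the block. The other 20 members kept their sign throughout.

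The median level was 10.2 CPM per kb of the longest transcript and 5.39 per kb of merged exons. X-box-like matches numbered 6 with a mismatch and 2 without. Bbs10 had the fewest reads, 21 to 60 per library, and a coefficient of variation of 29.4% in Rest_het and 42.1% in WT. The cause of these shifts was not tested.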
